A study of Mus musculus with 2 samples.

Results

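This account covers 28 genes of cholesterol synthesis and its control by the sterol regulatory element-binding proteins (SREBPs), chosen by gene name for their function, with earlier results of these data known. All 28 had reads, among 18111 annotated genes with a read in either library. The RNA came from the adrenal glands of untreated females of the B6CASTF1/J mouse strain, aged 14 days, and was read as whole cDNA molecules by long-read sequencing. The single group has 2 libraries, numbered as biological replicates 1 and 2. The labels name 3 females for the tissue of replicate 1 and 1 female for that of replicate 2, while both library descriptions name 3, so whether each is a pool of animals cannot be told. The libraries held 1065570 and 946553 reads in annotated genes.

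Cells make cholesterol from acetyl-CoA. The mevalonate steps build isoprenoid units, which are joined into squalene, closed into lanosterol and trimmed to cholesterol. When membranes are poor in sterol, Scap carries the SREBP precursors from the endoplasmic reticulum to the Golgi, where proteases release factors that switch on these genes, and Insig proteins hold Scap back when sterol is plentiful. The adrenal cortex turns cholesterol into steroid hormones and can take it from lipoproteins or make it.

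The 2 libraries differed in more than these genes, and every comparison below is between them. All 9 adrenal cortex marker genes, such as Cyp11a1, which encodes the enzyme that opens steroid synthesis, were lower in replicate 2. Their sum was 5.60% of the gene reads of replicate 1 and 2.49% of those of replicate 2. All 7 chromaffin cell markers were lower too, at 1.31% and 0.507%. Hepatocyte markers were higher in replicate 2 for 11 of 11 genes, at 0.0746% and 7.96%, and none of them was at 0 in either library. Skeletal muscle markers summed to 0.00601% and 0.170%, higher for 4 of 4 genes tested, with Myh1 and Tnnt3 at 0 reads in replicate 1. Adipocyte markers were closer in sum, at 0.732% and 0.832%, with 2 of 6 genes, Ucp1 and Cidea, higher. Leukocyte markers summed to 0.0135% and 0.0217%, with 1 of 3 genes tested, Cd74, higher. Erythroid markers were 0.911% and 0.291%, lower for 3 of 3 genes. The part of these other cell types in each difference below was not tested, unless a value is given. In a whole tissue, fewer cells of a type and less RNA per cell cannot be told apart. A test on reads takes in counting error alone. It sets 1 library against the other and not animals, and the spread between them may be technical.

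Together the 28 genes held 3409 reads in replicate 1 and 2106 in replicate 2. That was 0.320% of gene reads (exact Clopper-Pearson 95% interval 0.309 to 0.331) and 0.222% (0.213 to 0.232), or 0.271% ± 0.0689 (SD, n = 2). Each read is meant to be 1 cDNA, so levels are given as reads per 1000000 annotated gene reads (CPM) and not divided by length. By the mean of both libraries Dhcr7 was the most abundant of the 28, at 505 CPM, followed by Hmgcs1 at 369, Msmo1 at 198, Insig1 at 170, Srebf1 at 160 and Fdps at 155 CPM. In replicate 2 Hmgcs1, at 327 CPM, was above Dhcr7, at 211, and the SDs of Dhcr7 (416 CPM) and Msmo1 (127 CPM) exceed the gaps to the next gene. Insig1, Srebf1 and Fdps lay closer to each other than the SDs of Srebf1 (62.6 CPM) and Fdps (96.7 CPM), so their order is not resolved. Hmgcs1 was above Msmo1, Insig1, Srebf1 and Fdps in both libraries. At the low end stood Stard4, a cytosolic sterol carrier, at 9.97 ± 0.834 CPM, Erlin2, a protein of the endoplasmic reticulum membrane, at 12.3 ± 2.48, and Tm7sf2, at 14.7 ± 6.15 CPM (SD, n = 2).

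**Figure D1:**
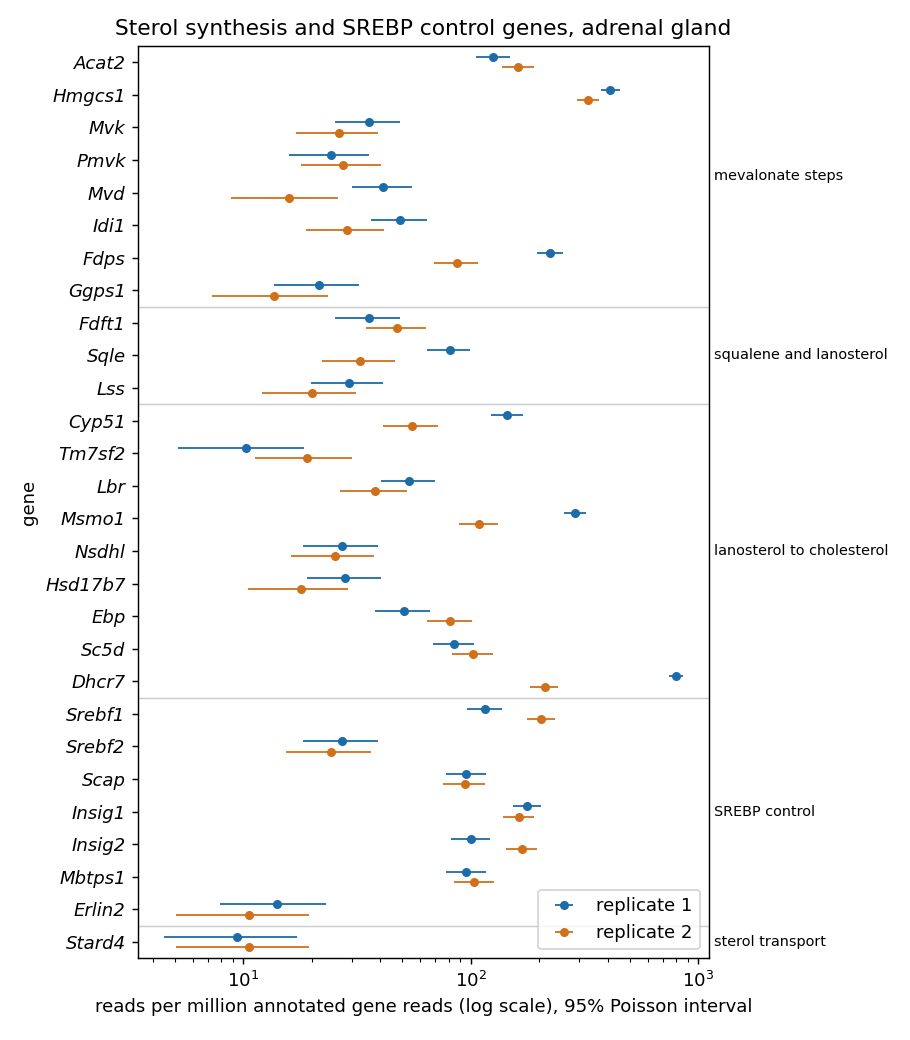
Level of each of the 28 genes in replicate 1 (blue) and replicate 2 (orange), in CPM on a log axis, with exact Poisson 95% intervals, by role. Dhcr7, at 800 and 211 CPM, has the widest gap among the abundant genes, while Insig1 and Scap have overlapping intervals.

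All 28 genes passed the minimum of 20 summed reads and were compared by an exact binomial test over 9211 genes, adjusted by the Benjamini-Hochberg method. Higher in replicate 2 were 3 of the 28, Insig2, Srebf1 and Ebp, where 8.58% of all genes tested were higher. Lower were 7 of the 28, Dhcr7, Msmo1, Fdps, Cyp51, Sqle, Mvd and Hmgcs1, where 17.9% of all genes were lower. The other 18 did not pass. Both shares have to be read against that background: on this scaling 7 of 28 is not far above it and 3 of 28 lies near it. Under the alternatives in the next paragraph, the lower calls lay further above their background. The higher calls there went from below their background to above it. The median log2 ratio of the 28 was -0.24, against -0.28 for all genes tested.

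The scaling between libraries sets where 0 lies. Under TMM the median of all genes was -0.03 and 4 of the 28 were higher and 6 lower, where 11.9% and 6.98% of all genes passed. DESeq2 size factors put that median at -0.04 and gave the same counts of 4 and 6, where 11.7% and 7.12% of all genes passed. Scaling to the ERCC spike-in RNAs, of which 26894 and 15903 reads were counted, put the median at 0.31. It gave 10 higher and 4 lower, where 22.5% and 1.85% of all genes passed. An edgeR exact test that assumes 0.2 for the coefficient of variation passed 0 of the 28 as higher and 3 as lower (Dhcr7, Fdps and Msmo1), where 4.84% and 0.727% of all genes passed.

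**Figure D2:**
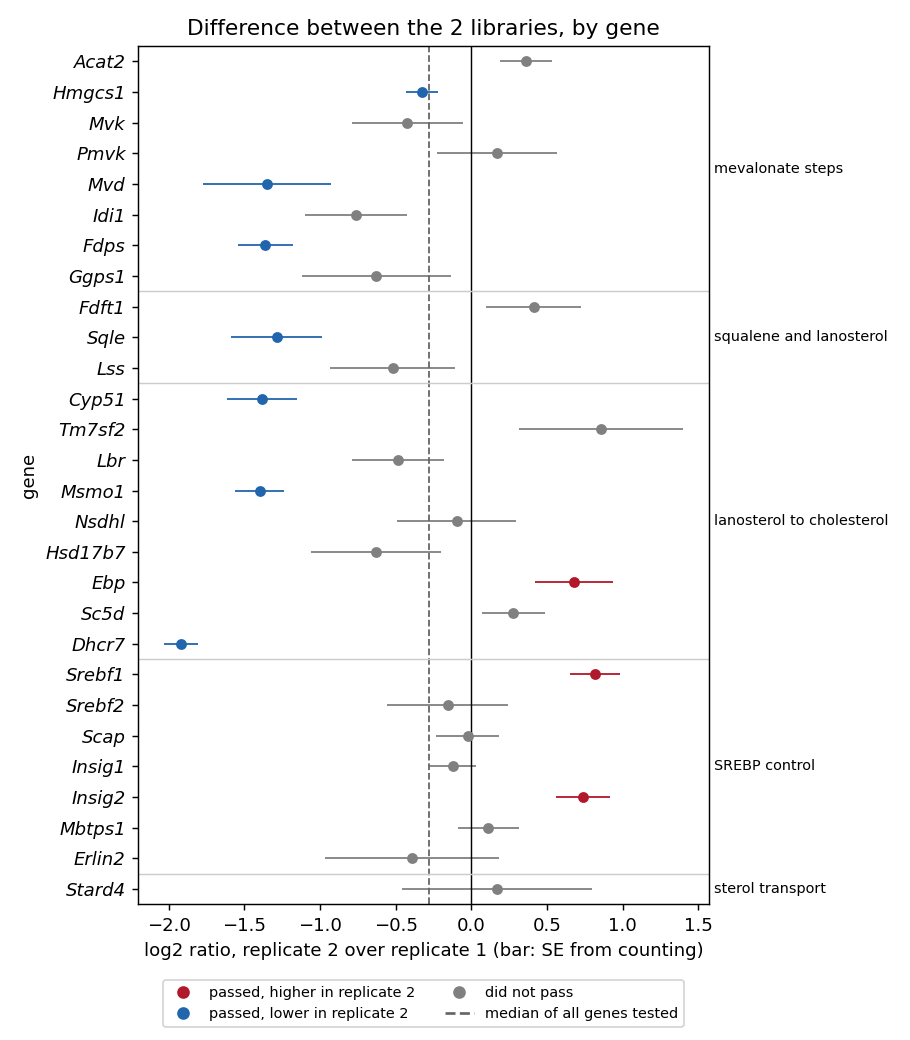
Log2 ratio of replicate 2 over replicate 1 for each of the 28 genes with its standard error from counting, by role. The dashed line is the median of all genes tested, -0.28; 7 genes passed as lower and 3 as higher, and Dhcr7 lies lowest at -1.92.

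The genes that control SREBP gave 2 genes higher and 0 lower of 7, where 8.58% of all genes were higher and 17.9% lower. Their median log2 ratio was -0.02, against -0.28 for all genes. It was 0.22 under TMM and DESeq2, against -0.03 and -0.04 for all genes, and 0.56 under ERCC scaling, against 0.31. Insig2 encodes one of the 2 Insig proteins that retain Scap, and its reads came from alternative first exons. Its reads numbered 107 in replicate 1 and 159 in replicate 2, or 100 and 168 CPM, a log2 ratio of 0.74 ± 0.18 (SE from counting) with adjusted p = 0.000294 in the exact binomial test. Insig2 is on the minus strand of chromosome 1 (mm10) and has alternative first exons in the annotation. The upstream one, Insig2a, spans 121332492 to 121332589, and the other, Insig2b, spans 121327691 to 121328024. Both are 5' UTR only: the coding part starts in exon 2 at 121319840, so both forms encode the same start of the protein. Insig2a is known from liver, where its level falls with insulin, and Insig2b is the form of most tissues.

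Replicate 1 had 0 multi-exon reads that began at Insig2a and 92 that began at Insig2b. Replicate 2 had 93 and 46. Full-model reads are those of multi-exon models that match an annotated transcript (Known) or hold an unannotated chain of introns that is not a fragment of an annotated one. The downstream exon held 97.9% of them (92 of 94, Clopper-Pearson 95% interval 92.5 to 99.7) in replicate 1 and 32.6% (46 of 141, 25.0 to 41.0) in replicate 2. Fisher's exact test over 1486 genes with alternative first exons gave adjusted p = 4.13e-24, where 3.03% of those genes passed. Insig2a was at 98.3 CPM in replicate 2, 34.9-fold the level of 3 reads (2.82 CPM), taken as what a count of 0 allows in replicate 1. That fold leaves out the counting error of replicate 2 (79.3 to 120 CPM), and the two-sided Poisson interval of the 0 reaches higher, to 3.46 CPM. Insig2b went the other way on the scaling by gene reads, from 86.3 CPM to 48.6, a log2 ratio of -0.82 ± 0.26. The median of all genes was -0.28 on that scaling and 0.31 under ERCC scaling, which would make the fall smaller. The ratio of Insig2b alone was not computed under other scalings. So the total of Insig2 was higher in replicate 2 while the downstream form had fewer reads. Hepatocyte markers rose in the same library, as given above, and their part in the Insig2a reads was not tested.

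Among whole transcripts of Insig2, Insig2-201 of the downstream exon had 78 and 40 reads and Insig2-202 of the upstream exon had 0 and 72. The share of Insig2-201 went from 83.0% to 28.4%, with adjusted p = 4.43e-14 in Fisher's exact test over 2969 genes, of which 1.15% passed. Both first exons were spliced mostly to the same exon 2, of 376 bases: 86 of 92 Insig2b reads in replicate 1, 43 of 46 in replicate 2, and 76 of 93 Insig2a reads.

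Promoter sequences are shown for the alternative starts of Insig2 and Srebf1, whose use differed between the libraries, and for Hmgcs1, the 1 gene with a match to the sterol element among the 23 for which a window was found. Each line is the 250 bases before a RefSeq start site (GRCm38.p6), 5' to 3' in the direction of the gene. Capitals mark matches on either strand to the NF-Y box CCAAT, the SREBP sterol element TCACNCCAC, the SREBP E-box TCACNTGA, the Nr5a1 element AAGGTCA or the cyclic AMP element TGACGTCA.
Insig2a, chr1:121332590-121332839, minus strand: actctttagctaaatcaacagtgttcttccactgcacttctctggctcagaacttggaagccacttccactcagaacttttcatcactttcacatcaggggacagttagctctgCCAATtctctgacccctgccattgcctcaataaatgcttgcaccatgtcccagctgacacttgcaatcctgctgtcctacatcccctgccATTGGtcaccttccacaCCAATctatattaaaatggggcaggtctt
Insig2b, chr1:121328025-121328274, minus strand: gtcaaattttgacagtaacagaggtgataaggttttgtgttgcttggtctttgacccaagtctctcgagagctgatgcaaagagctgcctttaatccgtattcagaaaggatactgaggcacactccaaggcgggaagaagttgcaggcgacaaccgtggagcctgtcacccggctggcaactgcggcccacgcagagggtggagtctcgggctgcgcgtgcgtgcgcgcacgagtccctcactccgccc
Srebf1a, chr11:60220628-60220877, minus strand: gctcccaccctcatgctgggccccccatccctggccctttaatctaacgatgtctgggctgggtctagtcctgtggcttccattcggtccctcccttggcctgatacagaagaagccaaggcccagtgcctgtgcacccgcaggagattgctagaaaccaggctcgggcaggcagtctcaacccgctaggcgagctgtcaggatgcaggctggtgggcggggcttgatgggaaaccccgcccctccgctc
Srebf1c, chr11:60210472-60210721, minus strand: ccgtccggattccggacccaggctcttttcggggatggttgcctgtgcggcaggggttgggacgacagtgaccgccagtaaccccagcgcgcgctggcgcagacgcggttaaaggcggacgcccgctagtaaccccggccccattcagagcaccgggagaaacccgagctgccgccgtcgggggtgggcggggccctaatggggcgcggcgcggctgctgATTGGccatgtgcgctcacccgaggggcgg
Hmgcs1, chr13:119690101-119690350, plus strand: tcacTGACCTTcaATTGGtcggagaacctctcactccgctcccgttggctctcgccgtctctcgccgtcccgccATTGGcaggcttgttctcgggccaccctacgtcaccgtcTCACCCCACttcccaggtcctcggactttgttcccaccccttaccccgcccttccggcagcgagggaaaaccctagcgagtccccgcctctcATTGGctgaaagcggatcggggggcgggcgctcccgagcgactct

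The Insig2a window held 3 NF-Y boxes, 29, 46 and 136 bases before the start, and 0 GC boxes (GGGCGG). The Insig2b window held 0 NF-Y boxes and 1 GC box, and overlaps a noncoding gene of the annotation, Gm37174. For Srebf1, the 1c window held an NF-Y box 30 bases before the start and 2 GC boxes, and the 1a window held 2 GC boxes and 0 NF-Y boxes. In Hmgcs1 the sterol element began 137 bases before the start, between NF-Y boxes at 176 and 45 bases.

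RefSeq windows were found for 23 of the 28 genes, 31 windows in all. An NF-Y box was present in 21 of the 31 windows (67.7%), against 33.9% of 32851 promoters of the same length. GC boxes were present in 24 (77.4%), against 32.7%. Those promoters were not limited to genes with reads here, and a comparison with promoters of expressed genes was not made. The sterol element stood in 1 window, that of Hmgcs1, against 1.05% of all promoters, and the E-box in 1, of another Insig2 start whose window overlaps the Insig2b exon, against 3.45%. The Nr5a1 element stood in 2 windows, of Hmgcs1 and of the Dhcr7 start at 143823167, against 4.08%. The splice donor of the first exon at that Dhcr7 start appeared in 0 multi-exon reads. The cyclic AMP element stood in 0 windows, against 1.55%. A match describes the letters only, and a missing match says only that these letters are not in that window.

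Srebf1 encodes SREBP-1, and its alternative first exons make proteins with different first residues. Its reads rose from 123 to 193, or from 115 to 204 CPM, a log2 ratio of 0.82 ± 0.17 (SE from counting, adjusted p = 6.78e-06, exact binomial test). The 1a and 1c exons did not share in that equally. Reads from exon 1a, which ends at 60220453 on chromosome 11, were 64 and 60, or 60.1 and 63.4 CPM, a log2 ratio of 0.08 ± 0.26. Reads from exon 1c, which ends at 60210336, were 29 and 93, or 27.2 and 98.3 CPM, a log2 ratio of 1.84 ± 0.30. Exon 1a held 65.3% of full-model reads in replicate 1 (64 of 98, 55.0 to 74.6) and 38.5% in replicate 2 (60 of 156, 30.8 to 46.6), with adjusted p = 0.00229 in Fisher's exact test. In replicate 1 the 1a form was the more frequent, and in replicate 2 the 1c form. The 1c form is the main one of liver, and SREBP-1a has a longer acidic activation domain. The shares of hepatocyte, skeletal muscle and other marker reads differed between the same libraries, as given above, and their part was not tested.

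The first coding bases of both forms are shown because they are the only coding difference that these first exons make. The GENCODE M21 transcripts give the following, with the coding bases of exon 1 in capitals and the first 30 bases of the shared exon 2 in lower case.
Srebf1a, from Srebf1-201: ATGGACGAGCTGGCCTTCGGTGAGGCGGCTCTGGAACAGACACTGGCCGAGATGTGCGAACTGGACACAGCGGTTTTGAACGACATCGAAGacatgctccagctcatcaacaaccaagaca
Srebf1c, from Srebf1-207: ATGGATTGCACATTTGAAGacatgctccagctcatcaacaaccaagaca

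Exon 1a adds 91 coding bases, 30 whole codons, and exon 1c adds 19, 6 whole codons. Both join exon 2 at 60207257. A second choice, between donors at the end of exon 4 that lie 15 bases apart (60206173 and 60206188), had similar values in both forms. In replicate 1 the longer exon was used by 55 of 63 1a reads that held either donor and 24 of 29 1c reads, and in replicate 2 by 52 of 59 and 83 of 93. Counted as whole transcripts, Srebf1-201 of the 1a form went from 51.0% to 28.8% of full-model reads (adjusted p = 0.0449, Fisher's exact test). The commonest 1c chain, of 19 exons, was not an annotated transcript as a whole and had 20 and 72 reads. With Known models only, Srebf1 had a log2 ratio of -0.02, since that setting leaves this chain out.

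The 5 other control genes did not pass. Insig1, the partner of Insig2 and itself an SREBP target, had 189 and 154 reads, 177 and 163 CPM, a log2 ratio of -0.12 ± 0.16. Scap, the sterol sensor and escort, had 102 and 89 reads, 95.7 and 94.0 CPM, a log2 ratio of -0.02 ± 0.21. Mbtps1, the first protease to cut SREBP in the Golgi, had 102 and 98 reads, a log2 ratio of 0.11 ± 0.20. All 3 ratios lay within their standard errors on this scaling, but under ERCC scaling each passed as higher, at 0.46 for Insig1 (adjusted p = 0.0185), 0.56 for Scap (0.0379) and 0.70 for Mbtps1 (0.00452, exact binomial test). Srebf2, which encodes SREBP-2, the main driver of cholesterol genes, was among the scarcer genes at 29 and 23 reads, 27.2 and 24.3 CPM, and Erlin2 had 15 and 10. Of the Srebf2 reads, 6 and 6 were the 19-exon Srebf2-201, 7 and 4 were Srebf2-205, annotated as a retained intron, and 12 and 8 were of the Genomic class, which overlaps a gene without matching its splicing. A difference of moderate size was not detectable at these depths. The signs for Scap, Srebf2 and Insig1 turn under TMM, DESeq2 and ERCC scaling, that of Erlin2 under ERCC scaling.

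**Figure D3:**
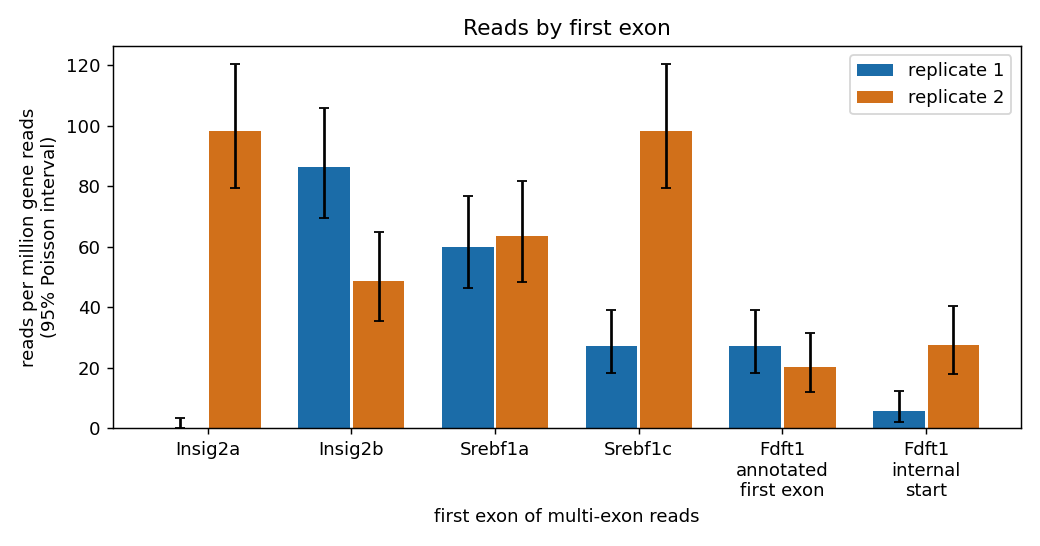
Multi-exon reads, in CPM, that begin at each named first exon of Insig2, Srebf1 and Fdft1, in replicate 1 (blue) and replicate 2 (orange), with exact Poisson 95% intervals. Insig2a is at 0 and 98.3 and Srebf1c at 27.2 and 98.3 CPM, while Srebf1a is at 60.1 and 63.4. The Fdft1 models labelled as an internal start are at 5.63 and 27.5 CPM. They cannot be told apart from cDNAs cut short at the 5' end.

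The mevalonate steps gave 0 genes higher and 3 lower of 8, where 8.58% of all genes were higher and 17.9% lower. Their median log2 ratio was -0.53, against -0.28 for all genes, and 0.06 under ERCC scaling, against 0.31. Hmgcs1, the cytosolic HMG-CoA synthase, had 438 and 310 reads, or 411 and 327 CPM. Its log2 ratio of -0.33 ± 0.11 (adjusted p = 0.0121, exact binomial test) lies close to the median of all genes, fell short of the threshold under TMM at -0.08, and turned to 0.26 under ERCC scaling. Fdps makes farnesyl diphosphate, where the branches to sterols and to other isoprenoids part. It had 238 and 82 reads, or 223 and 86.6 CPM, and fell by 1.36 ± 0.18 on the log2 scale (adjusted p = 9.82e-14, exact binomial test), and passed under every scaling tried. A gene on the same strand, Gm43738, overlaps Fdps in the annotation. Mvd, the decarboxylase that yields isopentenyl diphosphate, had 44 and 15 reads, a log2 ratio of -1.35 ± 0.43 (adjusted p = 0.00557, exact binomial test), and did not pass under ERCC scaling.

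The remaining mevalonate genes did not pass. Acat2, the cytosolic thiolase of the first step, had 134 and 153 reads, 126 and 162 CPM, and was higher under TMM (log2 ratio 0.61, adjusted p = 0.00284, exact binomial test). Idi1, the isopentenyl diphosphate isomerase, had 52 and 27 reads. Mevalonate kinase, Mvk, had 38 and 25, phosphomevalonate kinase, Pmvk, 26 and 26, and Ggps1, which makes geranylgeranyl diphosphate, 23 and 13. Within this group only the more abundant Hmgcs1, Acat2 and Fdps had over 100 reads in replicate 1.

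Hmgcs1 and Fdps each used an optional 5' UTR exon. Hmgcs1-201 had 237 and 175 reads, and Hmgcs1-202, with an extra exon of 59 bases at 119694989 to 119695047 on chromosome 13, had 138 and 96. The share of Hmgcs1-201 was 59.7% (54.7 to 64.6) in replicate 1 and 60.6% (54.7 to 66.2) in replicate 2, so the difference was within the counting intervals. The coding part starts later, at 119699674. For Fdps, Fdps-201 had 154 and 60 reads and Fdps-203, with an extra exon of 216 bases at 89100921 to 89101136 on chromosome 3, had 43 and 10. The share of Fdps-201 was 74.0% and 81.1% and did not pass (adjusted p = 0.934, Fisher's exact test).

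Of the 3 genes from farnesyl diphosphate to lanosterol, 0 were higher and 1 was lower, against the same 8.58% and 17.9% of all genes. Their median log2 ratio was -0.52, and 0.07 under ERCC scaling, where all genes had -0.28 and 0.31. Sqle, the squalene epoxidase, had 86 and 31 reads, 80.7 and 32.7 CPM. It fell by 1.29 ± 0.30 on the log2 scale (adjusted p = 6.3e-05, exact binomial test) and missed the threshold under ERCC scaling (adjusted p = 0.0646). Lss, which closes the ring system to lanosterol, had 31 and 19 reads. Fdft1, the squalene synthase that commits farnesyl diphosphate to sterols, had 38 and 45 reads, a log2 ratio of 0.41 ± 0.32, which did not pass, and was higher under ERCC scaling (1.00, adjusted p = 0.0109, exact binomial test).

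The Fdft1 reads fell into models with different first exons. Multi-exon reads from its annotated first exon, which ends at 63177683 on chromosome 14 and holds the start of the coding part, were 29 and 19. Reads of models that begin at the next exon were 6 and 26, or 5.63 and 27.5 CPM, a log2 ratio of 2.20 ± 0.63. Most of these, 6 and 25, were 1 chain of 7 exons classed as ISM, an incomplete splice match that lacks part of an annotated chain. Its first exon ends at 63164532 and runs to the start of Fdft1-203, a noncoding transcript, making an exon of 505 bases where exon 2 of Fdft1-201 has 98. The deposited models often take annotated ends, so the true start of each read is not shown, and a cDNA cut short at its 5' end cannot be told apart from a start at this place. The annotated first exon held 82.9% of reads in replicate 1 (29 of 35, 66.3 to 93.4) and 42.2% in replicate 2 (19 of 45, 27.7 to 57.8) when ISM models at annotated first exons were included. That difference passed Fisher's exact test (adjusted p = 0.0161, over 1833 genes of which 2.45% passed), but not when all multi-exon models were counted (adjusted p = 0.0751). Without ISM models Fdft1 could not enter the test.

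The steps from lanosterol to cholesterol gave 1 gene higher and 3 lower of 9, where 8.58% of all genes were higher and 17.9% lower. Their median log2 ratio was -0.48, against -0.28 for all genes, and 0.10 under ERCC scaling, against 0.31. Summed, their share of gene reads was 0.149% in the first library and 0.0659% in the second (ratio 0.444). Dhcr7 gave 852 of the 1584 reads of that sum in replicate 1 and 200 of 624 in replicate 2. The summed share of the adrenal cortex markers had the same ratio, 0.444. By median log2 ratio, those markers were at -1.06 and these steps at -0.48. Dhcr7, the reductase that turns 7-dehydrocholesterol into cholesterol, had 852 and 200 reads, or 800 and 211 CPM. It fell by 1.92 ± 0.11 on the log2 scale (adjusted p = 1.86e-78, exact binomial test), went from rank 139 to rank 807 among genes and passed under every scaling. Dhcr7 alone made up 25.0% of the reads of the 28 genes in replicate 1 and 9.50% in replicate 2. Without it, the other 27 held 0.240% (0.231 to 0.249) and 0.201% (0.192 to 0.211) of gene reads.

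Msmo1, the oxidase that removes methyl groups from sterols, had 307 and 103 reads, or 288 and 109 CPM, and fell by 1.40 ± 0.16 (adjusted p = 2.47e-18). Cyp51, the lanosterol demethylase, had 154 and 52 reads, or 145 and 54.9 CPM, and fell by 1.39 ± 0.23 (adjusted p = 2.81e-09, both by the exact binomial test). Both passed under every scaling, and only the assumed coefficient of variation ended the call of Cyp51 (adjusted p = 0.0602). Ebp, the sterol isomerase, went the other way, with 54 and 77 reads, 50.7 and 81.4 CPM, a log2 ratio of 0.68 ± 0.26 (adjusted p = 0.0346, exact binomial test). The call of Ebp was lost when genes of every depth entered the adjustment (adjusted p = 0.0629).

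The other 5 genes of these steps did not pass, though under ERCC scaling Sc5d (log2 ratio 0.87, adjusted p = 0.000426) and Tm7sf2 (1.44, adjusted p = 0.032, exact binomial test) were higher. Sc5d, a sterol desaturase, had 90 and 97 reads. Tm7sf2 and Lbr share a sterol reductase activity, Lbr being also a protein of the inner nuclear membrane. Lbr had 57 and 36 reads and Tm7sf2 11 and 18, and the exons of Tm7sf2 overlap Vps51 on the same strand. Nsdhl and Hsd17b7, which work with Msmo1 in the removal of methyl groups, had 29 and 24 reads and 30 and 17 reads. Stard4 had 10 reads in each library, 9 and 6 of them Genomic.

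Dhcr7 also stood apart in how its reads were classed. It had 0 Known reads, meaning none that matched a whole annotated transcript, in either library, while 89.5% and 83.5% of its reads were ISM. The leading chain had 8 exons and 581 and 145 reads. Its first exon ends at 143830265 on chromosome 7 at the same place as that of Dhcr7-209. The coding part starts at 143836644, downstream of that exon, and 676 of 795 multi-exon reads in replicate 1 and 178 of 194 in replicate 2 lay in models that span the whole coding part. Of the same 795 and 194 reads, 0 and 0 held the splice donor of the first exon of Dhcr7-201 or of Dhcr7-202, which allows up to 3 reads in each library. Among multi-exon reads, the first exon that ends at 143830265 held 633 and 166. That was 79.6% and 85.6% of them. Of full-model reads, which leave out the leading ISM chain, it held 58.4% (52 of 89) and 63.6% (21 of 33). The share of this exon did not pass Fisher's exact test in any count tried (adjusted p = 1 for full-model reads).

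**Figure D4:**
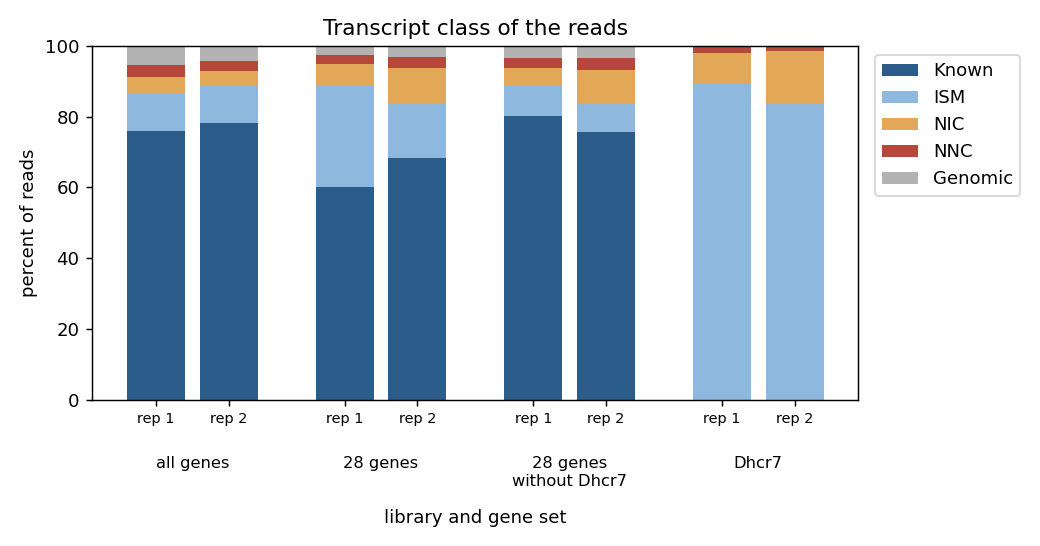
Share of reads in each transcript class, in percent, for all annotated genes, the 28 genes, the 28 without Dhcr7, and Dhcr7, in replicate 1 and replicate 2. Dhcr7 has no Known reads and 89.5% and 83.5% ISM reads, and without it the 28 genes have 80.3% and 75.6% Known reads, near the 76.1% and 78.2% of all genes.

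The other members varied in how many of their reads were Known, which does not measure whether a read is whole. Over all 28, 60.2% and 68.4% of reads were Known and 28.8% and 15.2% were ISM, against 76.1% and 78.2% Known and 10.7% and 10.6% ISM over all genes. Without Dhcr7 the ISM shares were 8.53% and 8.08%. Fdft1 had 42.2% Known reads in replicate 2, Mvk 34.2% and 44.0%, Srebf2 44.8% and 43.5%, Srebf1 40.7% and 23.3%, and Stard4 1 and 4 of its 10 reads in each library. Of 21 members with 20 or more reads in each library, 0 passed Fisher's exact test for a difference in the Known share, where 0.637% of 5969 genes passed. Srebf1 and Fdft1 had an unadjusted p under 0.05, with adjusted p = 0.145 and 0.162 in that test. Msmo1 and Acat2 were nearly uniform, with 95.6% and 95.9% of full-model reads in Msmo1-201 and 93.6% and 97.9% in Acat2-201. Mbtps1 and Scap were more mixed, with 71.4% and 70.7% in Mbtps1-201 and 81.7% and 78.4% in Scap-201.

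Pathway genes beyond the 28 did not move one way on the scaling by gene reads. Their median log2 ratio was 0.55, against -0.28 for all genes. Under ERCC scaling it was 1.14, against 0.31, and the ratios of those tested were all positive. Acat1, the mitochondrial thiolase, had 457 and 795 reads and Por, which passes electrons to Cyp51 and Sqle, 179 and 233, both higher. Cyb5r3, which feeds the electron carriers of Msmo1 and Sc5d, was lower at 557 and 398 reads (log2 ratio -0.31, which turned to 0.27 under ERCC scaling), while Cyb5b (418 and 325) and Erlin1 (21 and 29) did not pass. Mbtps2, the second SREBP protease, had 8 and 7 reads, under the minimum.

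SREBP target genes outside the pathway gave 1 higher and 6 lower of 15, where 8.58% of all genes were higher and 17.9% lower. Their median log2 ratio was -0.34, against -0.28 for all genes, and 0.245 under ERCC scaling, against 0.31. Calls in this list were counted on the scaling by gene reads only. Acly, which supplies cytosolic acetyl-CoA, had 2299 and 1263 reads, Fads2, a fatty acid desaturase, 2455 and 1234, and Me1, the malic enzyme that yields NADPH, 1007 and 380. These 3 were lower, as were Fads1 with 322 and 173 reads and Tmem97 with 98 and 56. Under ERCC scaling their log2 ratios shrank, from -0.69 to -0.11 for Acly, -0.82 to -0.23 for Fads2, -1.23 to -0.65 for Me1, -0.72 to -0.14 for Fads1 and -0.63 to -0.04 for Tmem97. Scd2, with 251 and 173 reads, was lower at a log2 ratio of -0.36, which turned to 0.22 under ERCC scaling. Scd1, a stearoyl-CoA desaturase abundant in liver, was the 1 gene higher, with 26 and 76 reads.

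Smaller lists have to be read against the same background of 8.58% higher and 17.9% lower. Among genes of sterol-sensing protein degradation, 0 were higher and 2 of 7 lower. Vcp, the extracting ATPase, had 603 and 446 reads (log2 ratio -0.26, which turned to 0.32 under ERCC scaling) and its cofactor Ufd1 143 and 64, while Rnf139 (51 and 49), Faf2 (74 and 66), Syvn1 (35 and 24) and Nploc4 (58 and 50) did not pass. Genes of the oxysterol receptors (LXR) and of oxysterol handling gave 3 higher and 0 lower of 5. Nr1h3, which encodes LXR alpha, had 51 and 91 reads, Cyp27a1, a sterol hydroxylase, 14 and 41, and Osbp, an oxysterol-binding protein, 27 and 44. Nr1h2, which encodes LXR beta, had 185 and 125 and did not pass, nor did Mylip with 17 and 12. Abca1 and Abcg1, with 9 and 10 and with 4 and 4 reads, lay under the minimum, and Ch25h had 0 reads in both. On the isoprenoid branches, 1 of 8 was lower, Fnta, a prenyltransferase subunit, with 171 and 107 reads (log2 ratio -0.50, which turned to 0.08 under ERCC scaling), and 0 were higher. Coq2 (149 and 126), Nus1 (35 and 23), Fntb (28 and 15), Pdss2 (27 and 23), Pdss1 (22 and 19), Pggt1b (22 and 16) and Dhdds (15 and 15) did not pass.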

How the data were processed

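Long-read RNA-seq libraries of mouse adrenal gland were analysed from the deposited transcript counts. Per the file headers, the authors counted whole reads per transcript model on mm10 with GENCODE M21; the counts are not scaled. The aligner and read filters: not given in the sources used here. Reads of all classes were summed per gene and divided by annotated gene reads without spike-ins (CPM). Genes with 20 or more summed reads were compared by a two-sided exact binomial test, log2 ratios adding 0.5 reads, with Benjamini-Hochberg adjustment over all genes at 0.05. Shares used Fisher's exact test over all genes with 20 reads per library and a second part of 5 or more reads. First exons were matched by splice donor, over Known, NIC (new combination of annotated splice sites) and NNC (a splice site outside the annotation) models; a chain given NIC or NNC in either library counted in both. Intervals are at 95%. The reads carry no molecular identifiers and so are not independent molecules. Alternatives were TMM (edgeR 4.0.16), DESeq2 1.42.0, ERCC scaling, an assumed coefficient of variation, other minimums and other model classes. Tests were tried on simulated data. Every one of the 28 genes is reported; of other lists, the genes called, the most abundant and short lists, except some genes not reported here. Genes, lists and tests were chosen with earlier results of these data known. Python 3.11.15, SciPy 1.17.1 and R 4.3.3 were used.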

Additional observations from a re-analysis of the deposited data

Results flagged for a closer look

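On the strand opposite Lbr, unannotated loci held 8 reads in replicate 1 and 4 in replicate 2, above the 3 reads that a count of 0 allows, in reads that no comparison of the report uses. Of these, 2 and 1 were spliced. Dnah14 is annotated on that strand and overlaps Lbr.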

How the results depend on the processing

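Counts of genes called moved by more than 1.5 times with ERCC scaling (10 higher, 4 lower) and with the assumed coefficient of variation (0 higher, 3 lower). With Known models only, the genes called for the leading transcript and for the first exon numbered 1 each, Insig2 in both, since fewer models count. Signs of log2 ratios turned as follows, the cause not tested beyond the shift in scaling. ERCC scaling gave Hmgcs1 0.26, Mvk 0.16, Lss 0.066, Lbr 0.10, Nsdhl 0.49, Srebf2 0.43, Scap 0.56, Insig1 0.46 and Erlin2 0.20. TMM gave Nsdhl 0.15, Srebf2 0.092, Scap 0.22 and Insig1 0.13, and DESeq2 size factors 0.15, 0.087, 0.22 and 0.12 for the same genes. Totals without hepatocyte marker reads, chosen after seeing the data, gave Nsdhl 0.021 and Scap 0.094. Known models only gave Pmvk -0.15, Fdft1 -0.47, Srebf1 -0.020 and Scap 0.13. The first exon differences of Insig2 (-65.7 percentage points) and Srebf1 (-21.5) also passed with all multi-exon models, chosen after seeing the data. The share of gene reads of the 28 genes ranged from 0.222% to 0.320% when either replicate was left out; a difference between libraries cannot be given with 1 library. No paired analysis was possible because there is 1 group. Genes under about 50 reads have counting errors that only large differences exceed.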
